A study of Gallus gallus with 54 samples.

Results

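KDR (ENSGALG00000013907) and VEGFA (ENSGALG00000010290) were followed through RNA-seq counts of chick neural retina, as 2 of the 15746 genes tested and of 24599 genes counted. VEGFA is a secreted growth factor of blood vessels, and KDR, also called VEGFR2, is the receptor tyrosine kinase that carries most of its signal into the cell. They were chosen by their symbols and by measured levels: counts of KDR were high even in libraries in which the endothelial genes VWF and CDH5 were near 0. For each gene the transcript entry with the largest summed count was used. In the galGal5 build, the KDR entry (ENSGALT00000022562, 5249 bases) spans chr4:65598124-65625791 on the plus strand. The VEGFA entry (ENSGALT00000016742, 1224 bases) spans chr3:30739147-30759022 on the minus strand.

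All birds were male White Leghorn chicks, raised for 6 days with 12 h of light per day. The 14 groups are 7 conditions at each of 2 times, 4 h (post-hatch day 7) and 24 h (post-hatch day 8). In 4 drug conditions, a diffuser was fitted over the eye and atropine, pirenzepine, ADTN or TPMPA was injected into the vitreous; at 24 h the injection had been repeated 4 h before collection. In recovery, a diffuser worn for 3 days had been taken off 4 h or 24 h earlier. In form-deprivation myopia (FDM), the diffuser was fitted without a drug, and untreated birds of the same age had none. FDM is a model in which loss of image detail makes the eye grow too long. Atropine blocks all muscarinic acetylcholine receptors and pirenzepine prefers the M1 type, ADTN is a dopamine receptor agonist, and TPMPA is an antagonist of GABA-C receptors. No group injected with vehicle alone was analysed here, so drug and injection cannot be told apart. There were 3 libraries each of recovery at 4 h and of untreated birds at 24 h, and 4 in all other groups.

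VEGFA is made by many cell types and is induced by hypoxia through the HIF transcription factors. It binds KDR, which signals through phospholipase C gamma and kinase cascades, and FLT1, which binds VEGFA tightly and signals weakly, with the neuropilins as co-receptors. KDR is a classical gene of endothelial cells, but in mice retinal neurons carry it too. The neural retina of birds is avascular: it is supplied by the choroid behind it and by the pecten, a pigmented vascular fold in the vitreous.

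The median library held 14.8 M counts (M for mega), the smallest 7.40 M and the largest 24.8 M. KDR drew between 2037 and 9821 counts per library and VEGFA between 201 and 1012. Counting error was therefore small beside the range over all libraries, but not beside the spread within the tightest groups. Photoreceptor markers summed to 2167 to 4518 CPM (counts per M) and ganglion cell markers to 1411 to 2271 CPM. Pigment epithelium markers, of the layer behind the retina, summed to 417 to 1583 CPM over the libraries. This sum includes RLBP1, also listed as a marker of Mueller glia, with 234 to 495 CPM. RPE65 ran from 31.9 to 499 CPM and DCT from 6.00 to 292 CPM. Blood vessel content differed far more than either gene. A vessel score, the mean log2 CPM of 14 endothelial genes that leave out the VEGF receptors, fell into 2 clusters of libraries, 27 between -0.87 and 0.70 and 27 between 1.38 and 3.77. These clusters were set from the data and are not groups of the study. The low cluster held all 4 pirenzepine 4 h, all 4 TPMPA 24 h and all 3 untreated 24 h libraries, and the high cluster all 4 libraries each of ADTN 4 h, recovery 24 h and FDM 24 h.

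Per length, KDR was the most abundant of the 9 measured genes of the VEGF family, at a mean level of 63.6 CPM per kb over 54 libraries, which placed it 1861st of 15746 genes. VEGFA followed with 30.2 CPM per kb, placed 4710th. Within a library, the level of KDR per kb exceeded that of VEGFA 1.18 to 4.79 times, with a median of 2.06. KDR spanned a 2.15-fold range of CPM over all libraries (244 to 526) and VEGFA a 2.25-fold range (23.6 to 52.9).

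The values that chose KDR are given here as a description. In the 27 libraries of low vessel score, KDR ran from 244 to 526 CPM with a median of 330 CPM. In the 27 libraries of high score, KDR ran from 263 to 439 CPM with a median of 325 CPM. VWF, which encodes von Willebrand factor (chr1:74319821-74458552, minus strand), had a median of 0.444 CPM (at most 8.20) in the low cluster and 69.7 CPM (at most 190) in the high one. CDH5, the adhesion molecule of endothelial junctions (chr11:11674123-11703375, minus strand), had medians of 0.161 and 19.4 CPM in the low and high clusters. The medians of VWF and CDH5 thus differed by orders of magnitude between the clusters, which follows from the split, since both are part of the score. Not every gene of the score did so: ESAM ran only from 26.4 to 67.5 CPM over all libraries. The medians of KDR were close and its highest values lay in the low cluster. Groups are mixed unevenly in these medians, with all 4 pirenzepine 4 h libraries in the low cluster. VWF had no count in 6 libraries and CDH5 in 11, where a floor of 3 counts per library corresponds to 0.156 to 0.301 CPM and 0.134 to 0.301 CPM.

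The 4 pirenzepine libraries at 4 h show this most plainly. Their KDR levels were 371, 485, 526 and 439 CPM, beside VWF at 0.444, 0.518, 1.12 and 4.97 CPM and CDH5 at 0.0888, 0, 0.561 and 1.75 CPM. The 3 untreated libraries at 24 h had KDR at 267, 249 and 260 CPM, beside VWF at 0, 0.315 and 0 CPM. The lowest and the highest group of the study for KDR were therefore both nearly free of VWF. In contrast, the 4 recovery libraries at 24 h had VWF at 37.9, 75.8, 69.7 and 78.9 CPM with KDR at 271, 282, 263 and 282 CPM.

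**Figure D1:**
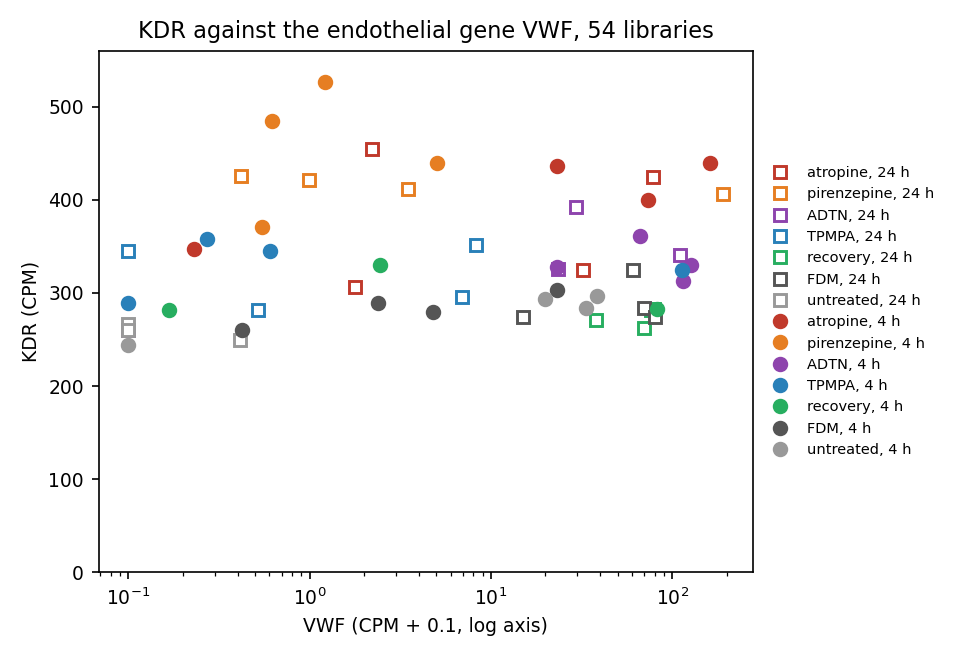
KDR (CPM, linear axis) against VWF (CPM plus 0.1, log axis) in 54 libraries, coloured by condition, with open squares for 24 h and filled circles for 4 h. VWF runs from 0 to 190 CPM while KDR stays between 244 and 526 CPM, and the highest KDR values stand at the low end of VWF.

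Over the 54 libraries, log2 CPM of KDR and VWF had a Pearson r of 0.09, or 0.35 with group means removed, and KDR and CDH5 had -0.02 and 0.28. By comparison, VWF and CDH5 had an r of 0.98. FLT1 moved with VWF more than KDR did, with an r of 0.73, and its r with KDR was 0.44. TEK, the angiopoietin receptor of endothelium, had an r of -0.17 with KDR, but its level was low, with a median of 0.936 CPM. These coefficients are descriptions, since the libraries share depth and composition and since this pattern chose the gene. With the mean log2 levels of the cell type marker lists, KDR had an r of 0.665 for Mueller glia (0.493 within groups) and -0.018 for the 14 endothelial genes (0.258 within groups). For amacrine cells it was -0.162 over all libraries and 0.449 within groups. In these means of log2 levels each gene of a list counts alike. The summed level of the Mueller glia list at 4 h averaged 2905 CPM with atropine and 3258 CPM with pirenzepine, against 3425 CPM in FDM. At 24 h it averaged 2977 CPM with atropine and 3552 CPM with pirenzepine, against 3009 CPM in FDM.

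The level of KDR differed between the groups. Across the 14 groups, edgeR's quasi-likelihood F-test gave KDR an adjusted p of 3.42e-07 (F = 10.7), 28th of 15746 genes, of which 12.4% passed at 0.05. In order of mean, the groups were pirenzepine at 4 h (455 ± 66.4 CPM), pirenzepine at 24 h (416 ± 8.63), atropine at 4 h (405 ± 42.9), atropine at 24 h (378 ± 72.8), ADTN at 4 h (333 ± 20.4) and 24 h (330 ± 54.5), and TPMPA at 4 h (329 ± 30.0) and 24 h (319 ± 34.9). Below these stood recovery at 4 h (298 ± 27.9), FDM at 24 h (289 ± 24.4) and 4 h (283 ± 18.1), untreated at 4 h (280 ± 24.1), recovery at 24 h (275 ± 9.32) and untreated at 24 h (259 ± 8.87 CPM; SD, n = 4, or 3 for recovery at 4 h and untreated at 24 h). The ranges of all 13 pairs of neighbours in this order overlapped. Both muscarinic antagonists thus headed the order at both times, and all 8 drug groups stood above all 6 groups without a drug. In these bulk libraries, more cells of a type and more RNA per cell cannot be told apart.

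**Figure D2:**
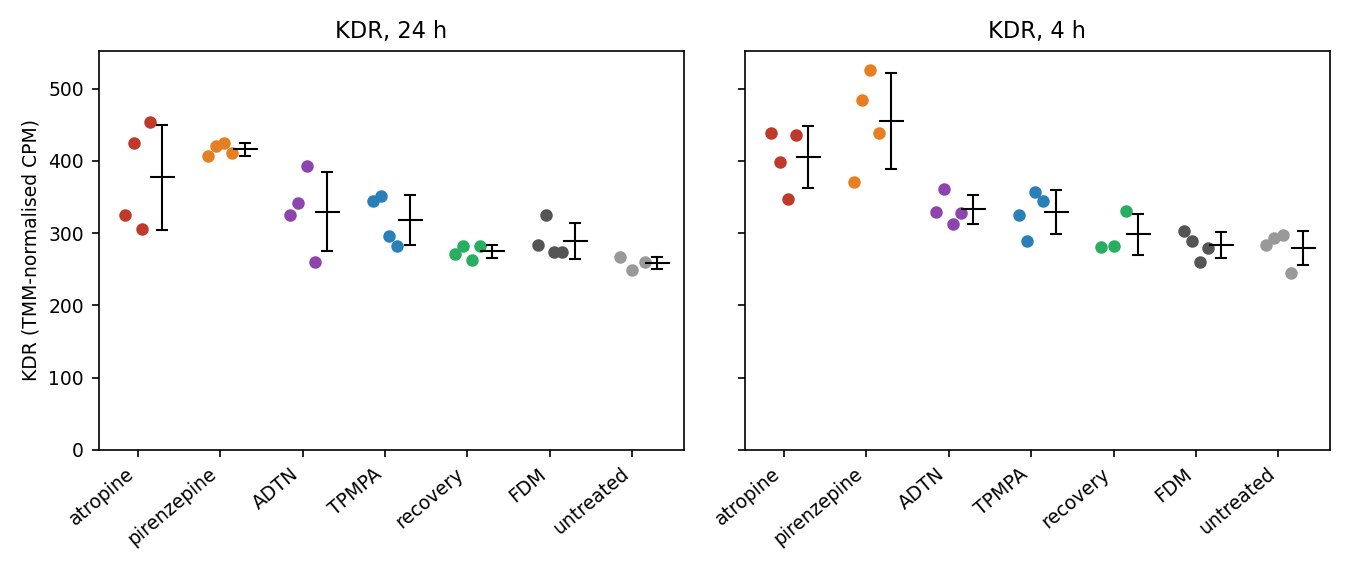
KDR in CPM (y axis from 0) in every library of the 7 conditions, with 24 h in the left panel and 4 h in the right; points are libraries and the black bar is the mean ± SD. Pirenzepine libraries lie between 371 and 526 CPM at 4 h and between 407 and 425 CPM at 24 h, above every FDM and untreated library.

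KDR rose with pirenzepine at 4 h. The libraries had 371, 485, 526 and 439 CPM with pirenzepine, against 304, 289, 261 and 280 CPM in FDM. The lowest pirenzepine library lay above the highest FDM library. The fold was 1.61 (95% interval 1.38 to 1.87; log2 0.69 ± 0.11 SE, adjusted p = 0.000144), the 9th smallest p among all genes tested, of which 2.09% were called in this comparison and 1.39% were called higher. Against untreated birds (283, 294, 297 and 244 CPM) the fold was 1.63 (log2 0.70, adjusted p = 6.3e-05), where 1.31% of genes were called (0.838% higher), with no overlap either.

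KDR rose with atropine at 4 h as well. Atropine libraries had 439, 399, 347 and 436 CPM, against 304, 289, 261 and 280 CPM in FDM. None overlapped. The fold was 1.43 (1.23 to 1.66; log2 0.52 ± 0.11, adjusted p = 0.00505), where 1.17% of genes were called and 0.934% were called higher. Against untreated birds it was 1.45 (log2 0.54, adjusted p = 0.00366), again without overlap, where 0.832% of genes were called (0.61% higher). The 2 muscarinic antagonists share their FDM and untreated libraries, so these comparisons are not independent of each other.

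At 24 h, KDR rose with pirenzepine. Its libraries had 407, 421, 425 and 411 CPM, against 284, 325, 274 and 274 CPM in FDM, and did not overlap with them. This gave a fold of 1.44 (1.24 to 1.67; log2 0.53 ± 0.11, adjusted p = 0.00272), with 1.63% of genes called and 1.23% called higher. Against untreated birds (267, 249 and 260 CPM) the fold was 1.61 (log2 0.69, adjusted p = 0.000695), without overlap, where 1.43% of genes were called (0.965% higher).

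Atropine at 24 h did not pass the test against FDM. Its libraries had 325, 425, 306 and 454 CPM, a spread over which 2 libraries stood near the highest FDM library and 2 well above it. The log2 difference was 0.39 (0.17 to 0.60, adjusted p = 0.12), in a comparison in which 0.0953% of genes were called. Without the lowest atropine library, replicate 3, the adjusted p was 0.0323. Against untreated birds, the atropine libraries did not overlap with the controls (log2 0.54, 0.31 to 0.78, adjusted p = 0.121). There edgeR called 0 genes (0%), with 1170 at an unadjusted p under 0.05; limma voom called 0 and DESeq2 called 55, KDR among them with an adjusted p of 0.00414. It passed in edgeR without atropine replicate 1 (adjusted p = 0.0243) or replicate 3 (0.0131). The difference between atropine and pirenzepine was -0.17 on the log2 scale at 4 h (-0.38 to 0.05, adjusted p = 0.726) and -0.14 at 24 h (-0.36 to 0.07, adjusted p = 0.657), so that a difference of either sign remained within the intervals. Between the 2 drugs edgeR called 0 genes at 4 h (0%; 1208 at an unadjusted p under 0.05; DESeq2 5, limma voom 0) and 0.197% at 24 h.

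The endothelial genes were not called in these comparisons, and their medians differed in sign between them. At 4 h the summed level of the 14 endothelial genes ran from 39.1 to 48.7 CPM with pirenzepine and from 36.4 to 373 CPM with atropine, against 39.2 to 112 CPM in FDM. At 24 h it ran from 45.7 to 373 CPM with pirenzepine, against 93.9 to 230 CPM in FDM. The median log2 difference over the 14 genes was -1.23 (pirenzepine) and 1.83 (atropine) at 4 h and -1.03 (pirenzepine) at 24 h. Over all genes the medians were near 0.00. In each of the 3, edgeR called 0 of the 14, where it called 2.09%, 1.17% and 1.63% of all genes. With shares this small, 0 calls among 14 genes does not show that endothelial levels were alike. Among libraries of low vessel score alone, the log2 difference of KDR between pirenzepine and FDM at 4 h was 0.71 (4 against 3 libraries), given without a test since low endothelial levels were part of how KDR was chosen. With the vessel score as a term of the fit, the log2 differences of KDR from FDM were 0.70 for pirenzepine and 0.47 for atropine at 4 h, and 0.58 for pirenzepine at 24 h. They too are given as a description, since VWF and CDH5 are part of the score. The part of vessel content in the KDR result was not tested.

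KDR did not pass the test with the other 2 drugs. ADTN libraries at 4 h had 330, 362, 313 and 327 CPM, each above the 4 FDM libraries (log2 0.23, 0.02 to 0.45, adjusted p = 0.303; 0.756% of genes called). TPMPA libraries at 4 h had 325, 289, 358 and 345 CPM, which overlapped with FDM (log2 0.22, 0.00 to 0.43, adjusted p = 0.341; 0.47% of genes called). At 24 h, ADTN libraries had 326, 341, 393 and 260 CPM (log2 0.19, -0.02 to 0.41, adjusted p = 0.685) and TPMPA libraries had 345, 351, 296 and 282 CPM (log2 0.14, -0.08 to 0.36, adjusted p = 0.641), against 284, 325, 274 and 274 CPM in FDM. The lower ends of these 4 intervals lie near 0. At 4 h the upper ends stay below the estimate for atropine (0.52), but both intervals overlap with that of atropine (0.30 to 0.73). At 24 h the estimate for atropine (0.39) lies within the interval of ADTN and above that of TPMPA. The interval of atropine at 24 h (0.17 to 0.60) overlaps with both. In the ADTN comparison at 24 h 0.0381% of genes were called, and in that of TPMPA edgeR called 0 (0%; 1844 at an unadjusted p under 0.05; DESeq2 41, limma voom 0). Against untreated birds, no difference passed either. With ADTN it was 0.25 at 4 h (adjusted p = 0.342; 0.572% of genes called), without overlap, and 0.35 at 24 h (adjusted p = 0.28; 0.0826% called), with overlap. With TPMPA it was 0.24 at 4 h (adjusted p = 0.465; 0.146% called), with overlap, and 0.30 at 24 h (0.06 to 0.53, adjusted p = 1), without overlap, where edgeR called 0 genes (0%; 576 at an unadjusted p under 0.05; DESeq2 7, limma voom 0).

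The muscarinic antagonists were compared with the other 2 drugs directly, in a comparison added after the data had been seen. At 4 h, KDR averaged 430 ± 58.3 CPM with atropine or pirenzepine and 331 ± 23.8 CPM with ADTN or TPMPA (SD, n = 8 each). The fold was 1.30 (log2 0.38 ± 0.08, 0.22 to 0.53, adjusted p = 0.00314), where 7.97% of genes were called and 3.16% were called higher, and it stayed past the threshold without any 1 library (adjusted p up to 0.0125). At 24 h, KDR averaged 397 ± 52.2 CPM against 324 ± 42.8 CPM, a fold of 1.22 (log2 0.29, 0.14 to 0.44, adjusted p = 0.0429; 1.02% of genes called, 0.616% higher). The 24 h call was lost with limma voom (adjusted p = 0.0593) and when only the groups compared were fitted (0.142), and in 10 of the 16 fits that each left out 1 library. Over both times, 11 of 16 libraries with a muscarinic antagonist had more than 400 CPM, as did 0 of 16 with ADTN or TPMPA and 0 of 22 without a drug. The cut of 400 CPM was not part of the plan and lies just above the highest of the other libraries (ADTN at 24 h, 393 CPM). These counts therefore depend on where it was put, and each set of 16 pools 2 drugs and 2 times. All 4 drugs together stood above FDM at 4 h (fold 1.33, log2 0.41, 0.24 to 0.59, adjusted p = 0.00634; 1.58% of genes called, 0.978% higher), a call that was lost without FDM replicate 3 (adjusted p = 0.0604) or 4 (0.0517), and not at 24 h (log2 0.31, adjusted p = 0.15; 0.14% called).

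The diffuser alone and its removal left KDR without a call. At 4 h, FDM libraries had 304, 289, 261 and 280 CPM, against 283, 294, 297 and 244 CPM in untreated birds (log2 0.02, -0.20 to 0.23, adjusted p = 0.999; 0.171% of genes called). At 24 h, FDM libraries had 284, 325, 274 and 274 CPM, all above the 267, 249 and 260 CPM of untreated birds (log2 0.16, -0.07 to 0.39, adjusted p = 0.778). In that comparison edgeR called 0 genes (0%), with 1136 at an unadjusted p under 0.05; DESeq2 called 28 and limma voom 0. Recovery libraries had 281, 283 and 330 CPM at 4 h (log2 against untreated 0.09, -0.14 to 0.33, adjusted p = 0.952; 0.0381% called) and 271, 282, 263 and 282 CPM at 24 h (0.09, -0.15 to 0.32, adjusted p = 0.824; 0.654% called). Recovery minus FDM was 0.07 at 4 h (adjusted p = 0.903; 0.349% called) and -0.07 at 24 h (adjusted p = 0.833; 1.17% called). None of these intervals reaches the change seen with pirenzepine at the same time. Between 24 h and 4 h of 1 condition, KDR differed by -0.13 to 0.03 on the log2 scale with adjusted p of at least 0.564. Differences between 2 conditions shifted between the times by -0.16 to 0.14, and no shift passed (adjusted p of at least 0.803). Against FDM the shift was -0.16 (-0.46 to 0.15) for pirenzepine and -0.13 (-0.44 to 0.17) for atropine. In these 2 tests edgeR called 0 genes (0%), with 951 and 1276 at an unadjusted p under 0.05. DESeq2 called 5 and 2, and limma voom 0. A shift of either sign thus remained within the intervals.

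**Figure D3:**
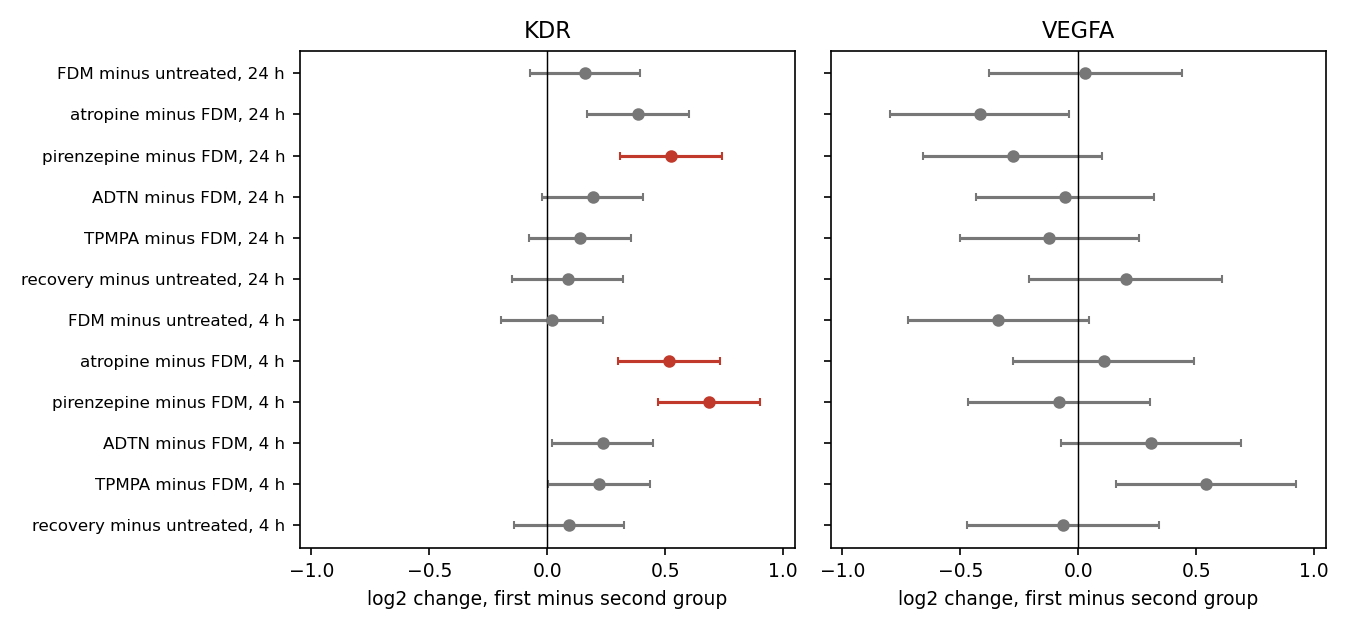
Log2 change of KDR and VEGFA with its 95% interval in the 12 comparisons with FDM or untreated, 24 h above 4 h, in red where the adjusted p is under 0.05. For KDR, pirenzepine at both times (0.53 and 0.69) and atropine at 4 h (0.52) are red, and no VEGFA change is.

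The genes most like KDR over the 54 libraries, among 10114 genes with a mean of at least 2 CPM, were STAT3 (Pearson r of log2 CPM 0.918), PADI3 (0.896), SOCS3 (0.886), EZR (0.884) and SDC1 (0.883). STAT3 is a transcription factor activated by cytokine receptors, SOCS3 is a feedback inhibitor of that signalling, PADI3 is a protein deiminase, EZR links the membrane to actin, and SDC1 is a heparan sulfate proteoglycan. With group means removed, STAT3 (0.760) and SOCS3 (0.693) again came first, then PIM3, PALLD and ITPKB. In the 38 libraries without a muscarinic antagonist, the r with KDR was 0.809 for STAT3, 0.807 for SOCS3, 0.763 for EZR, 0.756 for SDC1 and 0.735 for PADI3. These 38 libraries are part of the 54 over which the genes were picked, and they still hold differences between groups. Their r values therefore follow in part from the choice. PADI3, EZR and SDC1 were not among the 5 most like genes with group means removed. These values are descriptions, and the libraries share depth and composition.

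**Figure D4:**
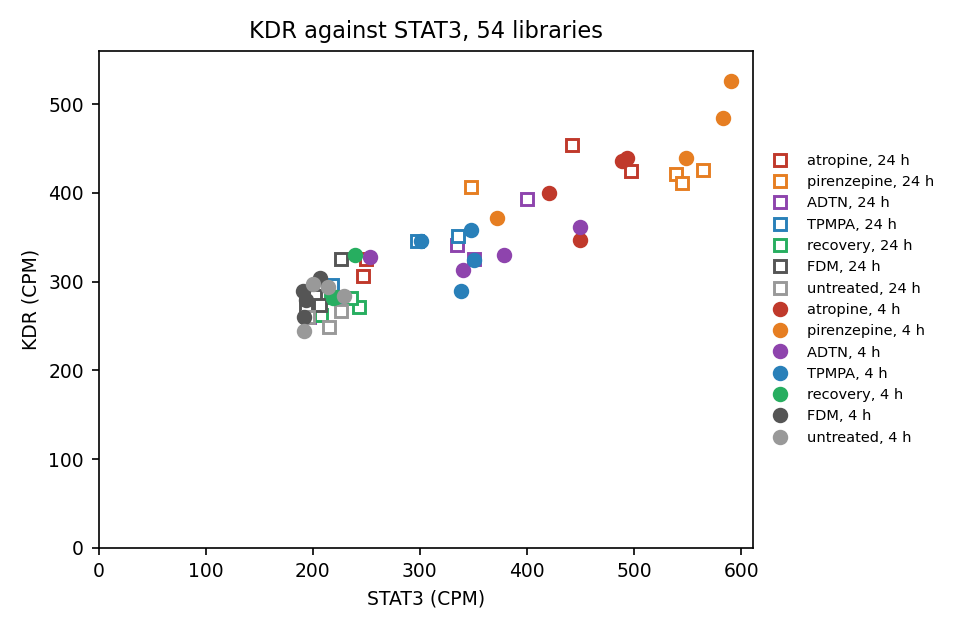
KDR against STAT3, both in CPM, in 54 libraries coloured by condition. Libraries with a high level of STAT3 have a high level of KDR (r = 0.918 on log2 CPM), with the atropine and pirenzepine libraries towards the upper right.

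STAT3 rose to 463 ± 34.2 CPM with atropine and 524 ± 103 CPM with pirenzepine at 4 h, against 196 ± 7.60 CPM in FDM (SD, n = 4 each; log2 1.24 and 1.42, adjusted p = 6.57e-05 and 4.28e-06). It also rose with ADTN (log2 0.86, adjusted p = 0.0165) and TPMPA (0.77, adjusted p = 0.0332) at 4 h, where KDR was not called, and with pirenzepine at 24 h (499 ± 101 against 207 ± 13.8 CPM; log2 1.27, adjusted p = 4.84e-05). SOCS3 rose as well. At 4 h it averaged 23.1 CPM with atropine and 32.4 CPM with pirenzepine, against 0.781 CPM in FDM (log2 4.82 and 5.29, adjusted p = 0.00406 and 0.000899). Pirenzepine at 24 h gave SOCS3 a mean of 48.5 CPM, against 0.961 CPM in FDM (log2 5.64, adjusted p = 0.000217). PADI3, EZR and SDC1 were called higher in the same 3 comparisons as KDR. All of these genes were picked by their likeness to KDR over the same libraries, group differences included. That they rise where KDR rises therefore follows from the choice and is no separate result.

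VEGFA varied widely among libraries of 1 group. The F-test across the 14 groups gave an adjusted p of 0.103 (F = 2.26, unadjusted p = 0.0215), 3292nd of 15746 genes. But the result depended on the setting: the adjusted p was 0.0336 with DESeq2 and 0.00789 with a replicate block in the fit. The level also went with the replicate number of the labels. Replicate 1 had the highest VEGFA level in all 7 groups at 4 h and in 3 of 7 at 24 h, and replicate 4 the lowest in 4 of 6 groups at 4 h and in 6 of 6 at 24 h. What the number stands for is not stated in the labels, and its part in the VEGFA results was tested only with a replicate block. The highest group means were recovery at 24 h (45.7 ± 4.87 CPM), TPMPA at 4 h (44.8 ± 4.93) and FDM at 24 h (40.6 ± 7.03), and the lowest FDM at 4 h (30.7 ± 2.55), atropine at 24 h (30.5 ± 7.15) and pirenzepine at 4 h (29.0 ± 4.61 CPM; SD, n = 4 each). All 13 pairs of neighbours overlapped. The other entries of VEGFA (ENSGALT00000065872 and ENSGALT00000077832) share reads with the 1 used, and ENSGALT00000065872 had on average between 0.931 and 0.958 times its counts in each group. For ENSGALT00000077832 the mean ratio ran from 0.607 ± 0.057 in recovery at 24 h to 0.715 ± 0.016 in pirenzepine at 4 h (SD). By the entry used, these groups had the highest and the lowest mean of VEGFA, so the ratio ran against that order.

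**Figure D5:**
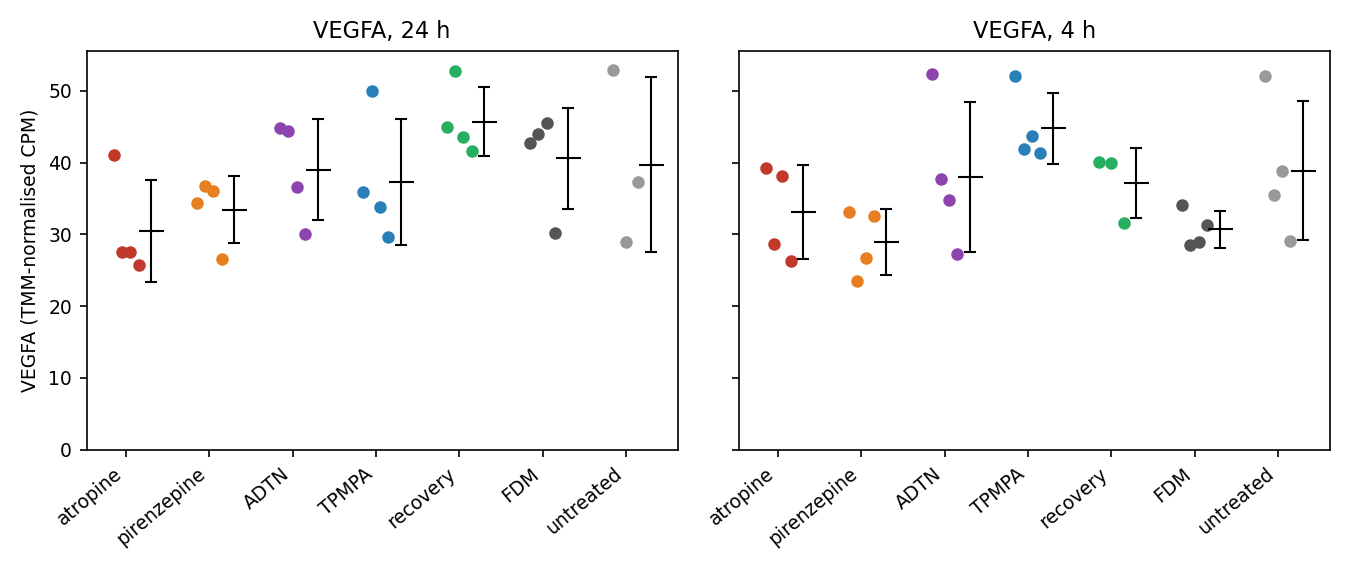
VEGFA in CPM (y axis from 0) in every library of the 7 conditions, with 24 h in the left panel and 4 h in the right; points are libraries and the black bar is the mean ± SD. TPMPA libraries at 4 h lie between 41.4 and 52.0 CPM and FDM libraries at 4 h between 28.5 and 34.1 CPM, without overlap.

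No comparison of VEGFA with FDM or untreated birds passed the test. The largest difference from FDM was that of TPMPA at 4 h, whose libraries had 52.0, 42.0, 43.7 and 41.4 CPM, against 34.1, 28.5, 28.9 and 31.3 CPM in FDM. Although the libraries did not overlap, the log2 difference of 0.54 (0.16 to 0.92; fold 1.46) had an adjusted p of 0.17, between 0.0579 and 0.503 under the other settings tried. Total counts moved with it: 12.4 to 22.4 M in the TPMPA libraries and 7.40 to 15.1 M in FDM. With the total count as a term of the fit the log2 difference was 0.44, and its part in the result was not otherwise tested. ADTN libraries at 4 h had 52.3, 37.7, 34.8 and 27.3 CPM (log2 0.31, -0.07 to 0.69, adjusted p = 0.447), which overlapped with FDM.

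With the muscarinic antagonists, VEGFA at 4 h had 39.3, 28.7, 38.1 and 26.3 CPM in atropine libraries (log2 against FDM 0.11, adjusted p = 0.911) and 33.1, 23.6, 26.8 and 32.5 CPM in pirenzepine libraries (-0.08, adjusted p = 0.883). At 24 h it had 41.1, 27.5, 27.5 and 25.7 CPM with atropine and 34.4, 36.8, 36.1 and 26.6 CPM with pirenzepine, against 42.7, 44.0, 45.5 and 30.2 CPM in FDM. All of these libraries lay below 3 of the 4 FDM libraries, and both groups overlapped with FDM through the fourth. The log2 differences were -0.42 (-0.80 to -0.04, adjusted p = 0.317) and -0.28 (-0.66 to 0.10, adjusted p = 0.626). ADTN (44.8, 44.4, 36.7 and 30.0 CPM) and TPMPA (35.9, 49.96, 33.8 and 29.6 CPM) at 24 h differed from FDM by -0.06 and -0.12, with adjusted p of 0.965 and 0.826.

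In the direct comparison of drugs at 4 h, VEGFA was lower with atropine or pirenzepine than with ADTN or TPMPA (fold 0.751, log2 -0.41 ± 0.13, -0.68 to -0.14, adjusted p = 0.0453, where 4.81% of genes were called lower). KDR was higher there. The VEGFA call stood at the edge of the threshold: it was lost in 6 of 10 other settings, among them the vessel score (adjusted p = 0.0968) or the level of small RNAs (0.239) as a term, and in 11 of the 16 fits without 1 library. Over the 10 other settings its adjusted p ran from 0.00946 to 0.239. At 24 h the log2 difference was -0.26 (adjusted p = 0.37).

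For the diffuser and its removal, VEGFA at 4 h had 34.1, 28.5, 28.9 and 31.3 CPM in FDM, against 52.0, 35.5, 38.8 and 29.1 CPM in untreated birds (log2 -0.34, -0.72 to 0.04, adjusted p = 0.77). Recovery libraries at 4 h had 40.1, 39.9 and 31.5 CPM, within the range of the untreated ones (log2 -0.07, adjusted p = 0.992). At 24 h, FDM (42.7, 44.0, 45.5 and 30.2 CPM) and untreated libraries (52.9, 28.9 and 37.3 CPM) differed by 0.03 on the log2 scale (adjusted p = 0.981). Recovery libraries at 24 h had 45.0, 52.7, 43.5 and 41.7 CPM (log2 against untreated 0.20, adjusted p = 0.751), each above the 3 recovery libraries at 4 h (24 h minus 4 h, log2 0.30, adjusted p = 0.66; 0.845% of genes called). The change with TPMPA was smaller at 24 h than at 4 h by 0.67 on the log2 scale (-1.20 to -0.13), which did not pass (adjusted p = 0.256).

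No relation between KDR and VEGFA passed the test after adjustment, which does not show that they are unrelated. Over all 54 libraries their log2 levels had a Pearson r of -0.329 (permutation p = 0.0158, adjusted over 4 relations 0.0632) and a Spearman rho of -0.272 (p = 0.0488, adjusted 0.195), and r was -0.217 without the 2 libraries farthest from the median of KDR. With group means removed, r was 0.0549 (permutation p = 0.740) and rho 0.0539. For this relation alone, values were shuffled within groups. For the others they were shuffled freely over libraries of different groups. Those p-values treat libraries of 1 group as independent, which they may not be. VEGFA and the vessel score had an r of -0.126 in the 27 libraries of low score (permutation p = 0.532; -0.353 without the 2 farthest; rho -0.272) and 0.337 in the 27 of high score (p = 0.0853, adjusted 0.171; 0.224 without the 2 farthest; rho 0.318). None of the 4 relations passed after adjustment. The split narrowed the range of the vessel score in each cluster, so these tests do not show that VEGFA and vessel content are unrelated. Over all 54 libraries the r of VEGFA with the score was 0.384, or 0.377 with group means removed, which was not tested.

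The genes most like VEGFA were MYRF (r 0.798), a membrane-bound transcription factor, PLXNA1 (0.790), a semaphorin receptor, LRP1 (0.781), a large endocytic receptor, PPP3CC (0.774), a calcineurin subunit, and ZNF516 (0.762). With group means removed, MYRF (0.799) and LAMC1 (0.757) came first. None of the 5 was called in any of the 12 comparisons with FDM or untreated. With the mean log2 levels of marker lists, VEGFA had an r of 0.605 with 6 horizontal cell markers, 0.523 with 25 genes of hypoxia and VEGFA regulation, 0.476 with ganglion cell markers, 0.384 with the endothelial genes and -0.414 with bipolar cell markers.

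Of the rest of the VEGF family, the ligands VEGFC (13.2 CPM per kb), VEGFD (8.23) and PGF (2.69), the co-receptors NRP2 (11.6) and NRP1 (7.97), and the receptors FLT1 (4.21) and FLT4 (0.919 CPM per kb) all had a lower mean level per length than VEGFA. The 9 measured members had 6 calls in 108 tests over the 12 comparisons (5.56%, against 0.593% of the tests of all genes), all higher: the 3 of KDR and 3 of PGF, placental growth factor, a ligand of FLT1. No other member had a call. KDR was chosen with earlier results of these data known, so this share does not measure a response of the family. PGF had 50, 26, 68 and 9 counts in the atropine libraries and 31, 25, 56 and 18 in the TPMPA libraries at 4 h, against 5, 3, 3 and 3 in FDM. No atropine or TPMPA library had as few as any FDM library. The log2 changes of PGF were 2.78 ± 0.62 (adjusted p = 0.00985) and 2.53 (adjusted p = 0.0425), and their size rests on these few FDM counts. At 24 h PGF had 10, 30, 29 and 32 counts with pirenzepine, against 9, 3, 8 and 6 in FDM (log2 2.18, adjusted p = 0.035). FLT1 averaged 32.7 CPM with atropine at 4 h, against 7.91 CPM in FDM (log2 2.04, adjusted p = 0.051). VWF stood at 162, 73.1, 0.130 and 23.0 CPM in those atropine libraries, against 23.1, 2.27, 0.326 and 4.71 CPM in FDM, and its part in the FLT1 difference was not tested. The median log2 difference of the 9 genes was 0.38 with atropine and 0.00 with pirenzepine at 4 h and 0.02 with pirenzepine at 24 h, against 0.00 over all genes.

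Of 26 listed genes linked to KDR signalling, not all of them downstream of KDR, 23 were tested. They had 4 calls in 276 tests over the 12 comparisons (1.45%, against 0.593% over all genes). These calls fell in the atropine and pirenzepine comparisons at 4 h, in which 1.17% and 2.09% of all genes were called. PLCG1, the phospholipase that binds activated KDR, averaged 12.1 ± 1.74 CPM with atropine and 12.9 ± 1.70 CPM with pirenzepine at 4 h, against 5.69 ± 0.586 CPM in FDM (SD, n = 4 each; log2 1.10 and 1.18, adjusted p = 0.0484 and 0.0188). With pirenzepine at 4 h, the adaptor NCK2 rose (94.6 against 74.8 CPM, log2 0.34, adjusted p = 0.0167) and NOTCH1, a receptor that restrains vessel sprouting, fell (27.6 ± 12.8 against 63.6 ± 12.6 CPM, log2 -1.19, adjusted p = 0.047). The median log2 difference of the 23 genes was 0.04 with atropine and -0.12 with pirenzepine at 4 h. These calls lie near the threshold: with 1 library left out at a time the count ran from 0 to 6, with 0 calls without FDM replicate 2 or 4 at 4 h and 1 call without FDM replicate 3 or pirenzepine replicate 2 at 4 h.

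Of 30 listed genes of hypoxia and VEGFA regulation, 25 were tested, with 6 calls in 300 tests over the 12 comparisons (2%, against 0.593% over all genes). The list holds targets of HIF, such as NDRG1 and BNIP3, so a call in it need not lie upstream of VEGFA. NDRG1, a stress-induced target of HIF, made 4 of the 6 calls. It rose with pirenzepine (84.0 CPM) and ADTN (93.3 CPM) at 4 h, against 59.5 CPM in FDM (log2 0.50 and 0.65, adjusted p = 0.0458 and 0.018). It also rose with pirenzepine at 24 h (94.3 against 64.6 CPM, log2 0.55, adjusted p = 0.0242), and it fell in recovery at 24 h (41.4 ± 3.28 against 77.0 ± 6.82 CPM in untreated birds, log2 -0.89, adjusted p = 0.000785). BNIP3, a mitochondrial target of HIF, rose with pirenzepine at 4 h (132 against 97.6 CPM in FDM, log2 0.44, adjusted p = 0.0123), and CITED2, which competes with HIF for a coactivator, rose with TPMPA at 4 h (8.67 against 4.03 CPM, log2 1.08, adjusted p = 0.0416). The count was 3 without FDM replicate 2, 3 or 4 at 4 h.

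Markers of Mueller glia, the radial glia of the retina, had 10 calls in 108 tests over the 12 comparisons (9.26%, against 0.593% over all genes). They had calls in all 3 comparisons in which KDR rose, without 1 direction for the list at 4 h. Not all of the 10 calls are named below. GFAP, the intermediate filament of reactive glia, rose to 46.3 ± 4.35 CPM with atropine and 49.1 CPM with pirenzepine, against 11.3 ± 3.87 CPM in FDM (log2 2.02 and 2.11, adjusted p = 0.00505 and 0.00242). It also rose with ADTN (40.3 CPM, log2 1.82, adjusted p = 0.024) and TPMPA (37.1 CPM, log2 1.70, adjusted p = 0.0425). With atropine, GLUL, which makes glutamine, fell (978 against 1480 CPM, log2 -0.60, adjusted p = 0.0212), as did the water channel AQP4 (185 against 241 CPM, log2 -0.38, adjusted p = 0.0152). With pirenzepine, SOX2 rose (55.3 against 34.8 CPM, log2 0.67, adjusted p = 0.0136). The 9 markers tested summed to 2495 to 3423 CPM with atropine and 2609 to 3659 CPM with pirenzepine, against 2913 to 4203 CPM in FDM. At 24 h they summed to 3259 to 3682 CPM with pirenzepine, against 2795 to 3251 CPM in FDM, without overlap, and the glutamate transporter SLC1A3 rose (524 against 373 CPM, log2 0.49, adjusted p = 0.0208). KCNJ8, a potassium channel of pericytes, rose with pirenzepine at 4 h (15.4 against 3.30 CPM, log2 2.22, adjusted p = 0.0377) and at 24 h (21.3 against 2.89 CPM, log2 2.89, adjusted p = 0.00424). These were the only 2 calls in 84 tests of the 7 pericyte markers (2.38%), so no other pericyte marker was called. The part of these markers in the KDR result was not tested.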

How the data were processed

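Retina RNA was sequenced on a NextSeq 500 from directional libraries, with an RNA integrity number above 7 per the labels. The deposited values are raw read counts per transcript entry and library, 38118 entries by 54 libraries. Per the submitters' processing notes, Trimmomatic 0.36, HOMER and HISAT2 2.1, the build galGal5, and both limma and edgeR were involved; the role of each tool is not stated there. Transcript lengths and coordinates (another unit, in bases) were taken as deposited. Transcripts of a gene share reads.

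For each gene name the entry with the largest summed count was kept (24599), and filterByExpr (minimum count 10, minimum total 15) left 15746 genes. Differences were tested with the robust quasi-likelihood test of edgeR 4.0.16 in R 4.3.3 (TMM, 1 fit of 14 group means), adjusted by Benjamini-Hochberg over all genes tested, threshold 0.05. CPM use TMM library sizes; CPM per kb divide by the entry's length. Alternatives were DESeq2 1.42.0, limma 3.58.1 voom, RLE scaling, no filter, only the groups compared, summed entries, a replicate block, leaving out 1 library, and the vessel score, small RNA level (69 entries) or total count as a term. The fit was tested on simulated data.

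Both genes and all lists were chosen with earlier results of these data known. The fits within clusters of vessel score and the 2 comparisons of muscarinic antagonists with the other drugs were added after the data were seen. Named were KDR, VEGFA, VWF and CDH5, up to 4 called members per list and comparison by size of change, and the 5 most like genes; marker genes beside them and uncalled FLT1 were chosen after their values were seen. Libraries are not stated to be from separate birds, so p-values measure the spread between libraries, which may be technical. Intervals are at 95%; floors for 0 counts are 3 counts per library and cover counting error only. No genome was used, so no sequences are shown.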

Additional observations from a re-analysis of the deposited data

Results flagged for a closer look

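VEGFA in the atropine group at 24 h had 41.1 CPM in replicate 1, while the other 3 libraries stood at 27.5, 27.5 and 25.7 CPM. The gap to the nearest library was 0.884 of the range of the group, above the critical value of 0.829 for 4 libraries (Dixon's test at the 95% level). It was the only case for either gene among 24 sets of 4 libraries, and chance gives about 1 in 20. Without this library, the test for any difference of VEGFA among the 14 groups had an adjusted p of 0.0492, against 0.103 with it.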

How the results depend on the processing

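The 3 calls of KDR against FDM kept their direction and stayed past the threshold in every setting: log2 0.47 to 0.58 for atropine at 4 h (adjusted p up to 0.0343), 0.61 to 0.78 for pirenzepine at 4 h (up to 0.0185) and 0.50 to 0.59 for pirenzepine at 24 h (up to 0.0165). The setting with the vessel score as a term is no test of vessel content, since endothelial levels were part of how KDR was chosen. The same holds for the fit within libraries of low vessel score. That fit is among the settings for pirenzepine at 4 h, and its pass adds no support. Without 1 library at a time, KDR with atropine at 24 h ran from 0.29 to 0.48. The test for any difference of VEGFA among groups passed with a replicate block (adjusted p = 0.00789) and with DESeq2 (0.0336). Without 1 library at a time its adjusted p ran from 0.0492 to 0.174, and it passed only without atropine 24 h replicate 1. Over 339 pairs of the same number, correlations of deviations across genes ran from -0.287 to 0.462 with a median of 0.0365, and 108 exceeded 0.1. For VEGFA itself, replicate 1 was highest in 10 of 14 groups and replicate 4 lowest in 10 of 12. The labels do not state what the number stands for, and the main fit left it out. Whether libraries of the same number belong together was not tested beyond the replicate block. For the VEGF family, calls numbered 11 with DESeq2, 3 with limma voom and 11 when only the groups compared were fitted, instead of 6. For KDR signalling, they numbered 7 with the block, 2 with limma voom, 2 without the filter and 0 to 6 without 1 library, instead of 4. For the hypoxia list, they numbered 2 with only the groups compared and 3 to 9 without 1 library, instead of 6. The cause of these shifts was not tested. Of 2151 values, 63 that were never called changed sign, with differences of at most 0.313 from the reported log2 value. Fits within a cluster of vessel score could not be made where a group kept fewer than 2 libraries. Drug and injection cannot be told apart.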
